A study of Mus musculus with 6 samples.

Results

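Pirin (*Pir*) and 9 genes of the NRF2 pathway (*Hmox1*, *Nqo1*, *Gclc*, *Gclm*, *Txnrd1*, *Srxn1*, *Slc7a11*, *Nfe2l2* and *Keap1*) were examined in immortalized bone marrow-derived macrophages (BMMs), as 10 of the 47729 genes counted. *Pir* was chosen by its counts in these libraries, present in *Aif1*-/- and absent in WT, so its values are a description and carry no test. The other 9 genes were listed for their place in the pathway, with earlier results of these data known. RNA-seq compared 3 libraries of *Aif1*-/- BMMs, which lack allograft inflammatory factor-1, with 3 libraries of WT BMMs. Both genotypes were given as C57BL/6J. The *Aif1*-/- mice had been backcrossed to this strain, and the paper gives the controls both as littermates and as WT mice of the strain. Marrow of the femur and tibia came from 8-week-old male mice, and the cells of both genotypes were turned into macrophages, immortalized with SV40 large T antigen and kept in CSF-1 at 120 ng/ml for 3 to 5 passages. The knockout is global and not limited to macrophages. The paper calls the animals independent, but whether every library is a separate cell line is not given in the sources used here, so the p-values cover only the spread among these samples, which may be technical.

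Counts assigned to genes were 17707986 to 26486393 in the *Aif1*-/- libraries and 23253869 to 29314253 in the WT libraries. The share of reads outside genes was 33.6% to 35.7% in *Aif1*-/- and 25.5% to 40.4% in WT libraries, so the WT libraries were the more uneven ones. *Aif1* itself had 4, 4 and 1 raw counts in *Aif1*-/- libraries and 220, 157 and 239 in WT libraries, so it was near 0 in each library labelled *Aif1*-/-. All 11 macrophage markers passed the filter on low counts, and 7 were higher and 1 lower in *Aif1*-/- BMMs (8.04% and 10.5% of all tested genes at an adjusted p under 0.05 from edgeR), with a summed level of 6122 to 6220 CPM in *Aif1*-/- and 4559 to 5244 CPM in WT libraries. Of 34 markers of granulocytes, mast cells, fibroblasts, erythroid, B and T cells, 17 had no count in any library and 2 had enough counts to be tested, and their summed level was 7.14 to 7.86 CPM in *Aif1*-/- and 4.71 to 8.41 CPM in WT libraries. The 6 megakaryocyte and platelet markers summed to 85.2 to 89.1 CPM in *Aif1*-/- and 39.7 to 44.6 CPM in WT libraries. Of these, 4 were tested and 3 were higher (*Pf4*, which had the most counts, *Treml1* and *Ppbp*), *Itga2b* did not pass (log2 fold change −0.49), *Gp9* had 2 counts in all and *Gp1bb* had none. The part of these marker shifts in the results that follow was not tested.

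NRF2, encoded by *Nfe2l2*, is a transcription factor that is held in the cytoplasm and passed to the proteasome by KEAP1, the adaptor of a CUL3 ubiquitin ligase. When oxidants or electrophiles modify cysteines of KEAP1, NRF2 accumulates, pairs with a small MAF protein and binds antioxidant response elements (AREs) upstream of genes for glutathione synthesis, thioredoxin reduction, quinone reduction and heme breakdown. BACH1, a heme-binding repressor, occupies the same elements. Macrophages use this program when they take up red cells and their heme and when they make oxidants of their own. Pirin is an iron-binding nuclear protein of the cupin fold that binds BCL3 and NF-kB in human cells, where its gene is also a known NRF2 target.

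The sequence before the *Pir* gene is shown because *Pir* had reads in *Aif1*-/- libraries only and the ARE is the element through which NRF2 acts. The stretch is chrX:164269181-164269370 of GRCm38.p6 (RefSeq promoter table), on the plus strand, the strand of *Pir*, and it ends at the last base before the gene as GENCODE annotates it. GENCODE starts *Pir* 60 bases upstream of the RefSeq start site. Capitals mark a match to the ARE core, searched as TGACNNNGC on both strands in the 250 bases before each RefSeq start.
Pir: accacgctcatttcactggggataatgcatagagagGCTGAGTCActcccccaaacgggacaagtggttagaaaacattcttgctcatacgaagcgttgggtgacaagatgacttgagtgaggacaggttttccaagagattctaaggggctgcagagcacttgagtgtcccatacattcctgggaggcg
The match lies 214 to 206 bases before the RefSeq start and reads TGACTCAGC on the opposite strand. Bases 212 to 206 of it, TGAGTCA, are also the AP-1 element, so the letters do not separate the 2 kinds of site.

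Of the 10 genes, 8 were in the promoter table, all but *Hmox1* and *Gclc*, and 4 of these 8 held an ARE core in the window searched: *Pir*, *Gclm*, *Txnrd1* and *Nfe2l2*. Across the table, 10.2% of 32851 windows and 11.5% of 27025 genes held one. The 3 further matches are shown beside that of *Pir* so that their cores can be compared, each 5′ to 3′ on the strand of its gene with the core in capitals. They are chr3:122245407-122245447 for *Gclm* (plus strand), chr10:82859098-82859138 for *Txnrd1* (plus strand, before 1 of its annotated starts) and chr2:75704879-75704913 for *Nfe2l2* (minus strand).
Gclm: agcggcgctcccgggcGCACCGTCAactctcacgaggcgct
Txnrd1: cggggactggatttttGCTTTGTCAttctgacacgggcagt
Nfe2l2: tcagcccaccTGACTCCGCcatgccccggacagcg
The base of the core nearest to the gene lies 126 bases before the start in *Gclm*, 84 in *Txnrd1*, 232 in *Nfe2l2* and 206 in *Pir*. Only the *Nfe2l2* core reads TGACNNNGC on the strand of its gene. The AP-1 element was found in *Pir* and *Srxn1*, and in 4.46% of all windows. A match is a run of letters and not a bound site, and elements farther upstream were outside the windows.

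*Pir* (ENSMUSG00000031379, chromosome X of GRCm38, 164269371 to 164373011) had 296, 160 and 218 raw counts in *Aif1*-/- replicates 1, 2 and 3, against 0, 0 and 0 in the WT replicates. All 3 *Aif1*-/- libraries thus held *Pir* reads and no WT library held any, out of 79211014 gene counts over the WT libraries. As normalized counts, which are brought to the scale of the mean library, the *Aif1*-/- libraries had 261, 213 and 287, a mean of 254 ± 37.6 (SD, n = 3). Against a floor of 3 counts over the WT group, the *Aif1*-/- level was at least 285-fold higher, a bound that covers counting error of the WT libraries only. The bound was 185-fold, 185-fold and 201-fold when WT replicates 3, 2 and 1 were left out in turn, because fewer WT reads then stand behind the floor. In bulk RNA, a few cells with much *Pir* RNA and many cells with little cannot be told apart.

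There were 8 genes with no count in any WT library and at least 10 in every *Aif1*-/- library, *Pir* included, 6 of which are protein-coding, and *Pir* had the most counts. The reverse, no count in any *Aif1*-/- library and at least 10 in every WT library, held for 17 genes, 1 of them on the X chromosome. Of the 8 genes, 6 lie on the X chromosome: *Pir*, *Xlr4b*, *Xlr3b*, *Xlr4a*, *Xlr3c* and *Xlr4d-ps*. The *Xlr* genes are near-identical copies of an X-linked lymphocyte-regulated family and can share reads, so they are not 5 independent genes. *Xlr4b*, the most abundant of them, had 146, 110 and 89 raw counts in *Aif1*-/- libraries and 0 in each WT library. Over the X chromosome as a whole, 19.7% of 635 tested genes were called between genotypes, against 18.6% of all 17406 tested genes. Of these 635 genes, 9.76% were higher and 9.92% lower. The 8 genes were picked by the property that chose *Pir*, so their count is a description.

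By Euclidean distance between profiles of log2 CPM over the 6 libraries, the 5 genes most like *Pir* were *Xlr4b* (distance 1.71), *Slc18b1* (1.85), *Dennd2a* (1.90), *Gm26520* (2.14) and *Gm20756* (2.16). *Slc18b1* encodes a vesicular polyamine transporter. It had 332 raw counts over the *Aif1*-/- libraries and 1 over the WT libraries, a ratio of 422 (95% counting interval 75.2 to 16710.5). *Dennd2a*, which encodes a Rab exchange factor, averaged 223 ± 30.0 normalized counts in *Aif1*-/- and 1.91 ± 2.02 in WT BMMs (SD, n = 3 each). *Gm26520* and *Gm20756* are long noncoding RNAs. None of the 5 is on the NRF2 lists used here, and since they were chosen for their likeness to *Pir* they carry no test.

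**Figure D1:**
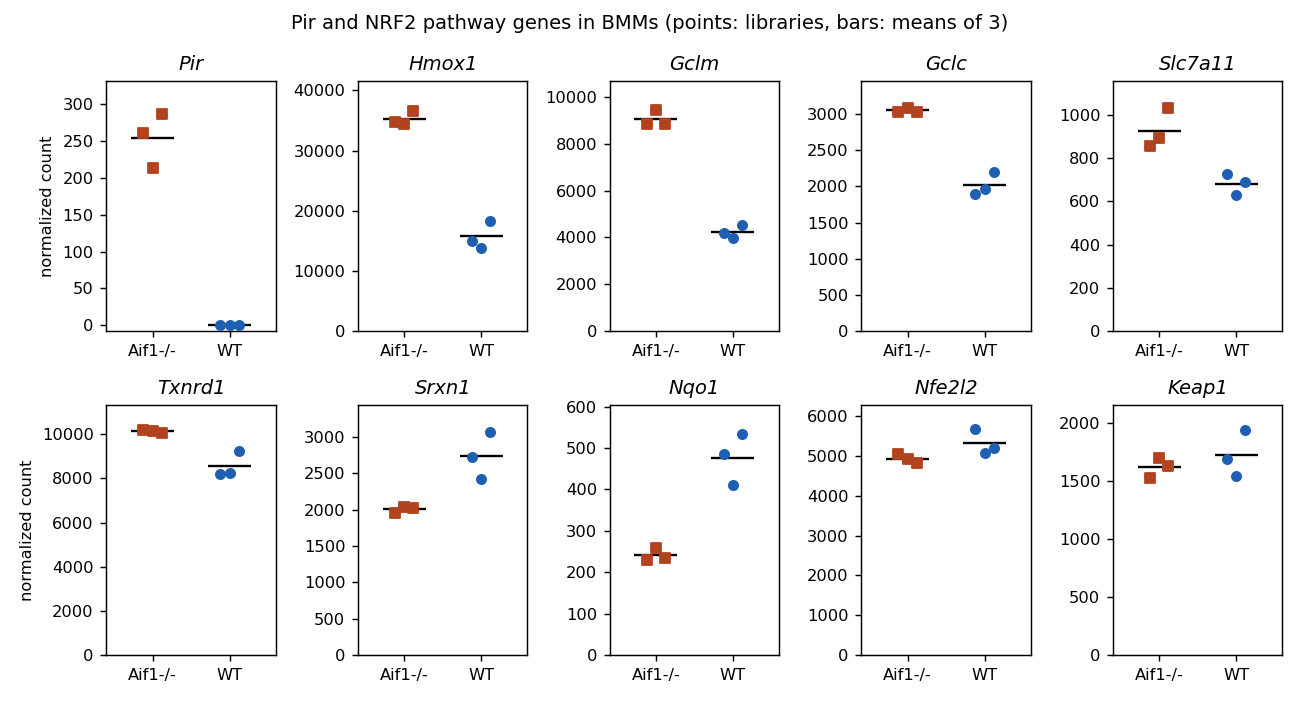
Normalized counts (vertical axes, linear from 0) of *Pir* and the 9 NRF2 pathway genes, with a point for each library of *Aif1*-/- (squares, left) and WT (circles, right) BMMs and a bar at the mean of 3. *Pir* is at 0 in every WT library, *Hmox1* and *Gclm* have means more than 2 times as high in *Aif1*-/- libraries (35216 and 9047, against 15743 and 4249 in WT), and *Nqo1* has a mean of 240.4 in *Aif1*-/- and 477 in WT libraries.

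The genes next to *Pir* were followed because position was not used to choose it. Within 500 kb of *Pir* the files hold 17 other genes, of which 8 had no count in any library and 5 had enough counts to be tested. The nearest protein-coding gene on each side of *Pir* had reads in *Aif1*-/- libraries only, at a far lower level, while *Gm25367*, a small nuclear RNA gene 1194 bases before *Pir*, had no count in any library. *Vegfd* encodes a lymphangiogenic growth factor and starts 366 bases after the end of *Pir* on the same strand. It had 23, 7 and 14 raw counts in *Aif1*-/- libraries and 0 in each WT library, 18.6 times the floor. *Bmx* encodes a TEC-family tyrosine kinase and lies 11177 bases before *Pir* on the opposite strand. It had 3, 5 and 3 raw counts in *Aif1*-/- libraries and 0 in each WT library, 4.66 times the floor. These figures leave out the counting error of the *Aif1*-/- counts, 44 in all for *Vegfd* and 11 for *Bmx*. *Bmx* falls below the 10 counts set for naming and was named after its values were seen. Both genes were too low for the filter on low counts. As both had reads in *Aif1*-/- libraries only, their values are a description. Whether the *Vegfd* reads come from transcripts that run past the end of *Pir* was not tested.

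Genes farther from *Pir* did not share the pattern, and all were expressed in both genotypes. *Ap1s2*, a clathrin adaptor subunit, was higher (2705 ± 125 normalized counts in *Aif1*-/- and 1720.4 ± 149 in WT BMMs, log2 fold change 0.65). *Car5b*, a mitochondrial carbonic anhydrase, was lower (827 ± 102 in *Aif1*-/- and 1238 ± 141 in WT, log2 fold change −0.58). *Zrsr2*, *Siah1b* and *Piga*, the gene for the first step of GPI anchor synthesis, did not pass the test (log2 fold changes 0.14, −0.12 and 0.20). In the plot of counts by distance, the stretch with reads in *Aif1*-/- libraries only is thus limited to *Bmx*, *Pir* and *Vegfd* among the genes with at least 3 counts in a library.

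**Figure D2:**
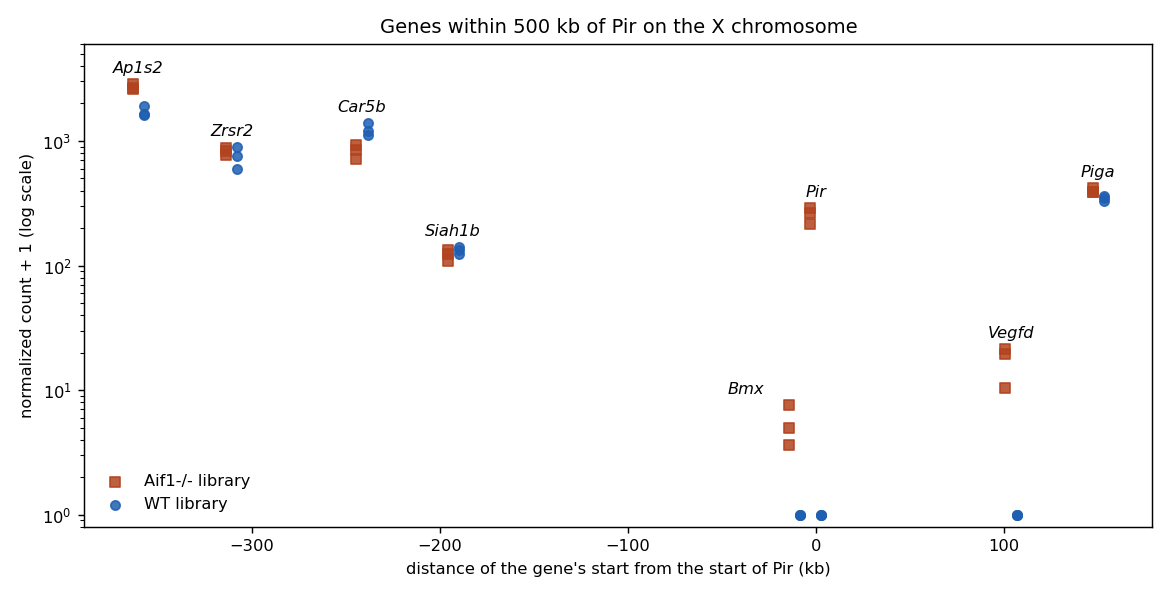
Normalized counts plus 1 on a log scale (vertical axis) of the genes within 500 kb of *Pir* that had at least 3 counts in a library, by the distance of each gene's start from the start of *Pir* in kb (horizontal axis), with squares for *Aif1*-/- and circles for WT libraries, drawn slightly apart. *Bmx*, *Pir* and *Vegfd* sit at the bottom line, a count of 0, in every WT library and above it in every *Aif1*-/- library.

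The NRF2 pathway genes beside *Pir* moved in both directions. Of the 9, 5 were higher (*Hmox1*, *Gclm*, *Gclc*, *Slc7a11* and *Txnrd1*), 2 were lower (*Nqo1* and *Srxn1*) and 2 did not pass the test (*Nfe2l2* and *Keap1*) in *Aif1*-/- BMMs, at an adjusted p under 0.05 from edgeR's quasi-likelihood test on all 17406 genes tested. All 9 passed the filter on low counts and had reads in every library. Of all tested genes, 18.6% were called, 8.04% as higher and 10.5% as lower, and of the 10518 tested genes whose average log2 CPM was 3 or more, as it was for all 9, 22.2% were called, 10.1% as higher and 12.1% as lower. DESeq2 called 19.4% of all tested genes. Normalized counts of the genotypes did not overlap for 8 of the 9 genes, against 35.7% of all tested genes and 40.9% of those with an average log2 CPM of 3 or more. The median log2 fold change was 0.24 for the 9 genes and 0.00 for all tested genes. Since the 9 genes were listed with earlier results of these data known, their shares may in part reflect that choice. An exact permutation test of 1 gene with 3 libraries per genotype has 0.1 as its smallest two-sided p.

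Neither gene of the NRF2-KEAP1 pair passed the test. *Nfe2l2* (ENSMUSG00000015839, chromosome 2, 75675513 to 75704641) had 5060, 4913 and 4822 normalized counts in *Aif1*-/- replicates 1, 2 and 3, against 5672, 5076 and 5187 in the WT replicates. The highest *Aif1*-/- library lay just below the lowest WT library, and the log2 fold change was −0.11 (standard error 0.07, adjusted p = 0.344). *Keap1* (ENSMUSG00000003308, chromosome 9, 21229730 to 21239361) had 1528, 1703 and 1637 in *Aif1*-/- libraries, against 1693, 1545 and 1945 in WT libraries. These ranges overlap, and the log2 fold change was −0.09 (standard error 0.09, adjusted p = 0.589). The ratio of *Nfe2l2* to *Keap1* counts, which does not depend on library scaling, averaged 3.05 ± 0.23 in *Aif1*-/- and 3.10 ± 0.38 in WT BMMs (SD, n = 3 each, two-sided exact permutation p = 0.9). NRF2 is controlled mainly through the life of its protein, which these counts do not measure. *Keap1* shares 510 bases of exon with an antisense gene, *Gm16754*, and whether the counting separated the strands is not settled here.

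*Hmox1* (ENSMUSG00000005413, chromosome 8, 75093621 to 75100589) encodes heme oxygenase-1, which opens heme to biliverdin, carbon monoxide and iron, and was the most abundant of the 10 genes per length of exon. It had 34678, 34336 and 36635 normalized counts in *Aif1*-/- replicates 1, 2 and 3, against 14971, 13899 and 18358 in the WT replicates. The lowest *Aif1*-/- library was far above the highest WT library, which was replicate 3. The level was 2.24-fold higher in *Aif1*-/- BMMs (log2 fold change 1.16, standard error 0.10, adjusted p = 1.73e-05). *Hmox2*, its constitutive relative, did not pass the test (log2 fold change −0.13, adjusted p = 0.296), nor did *Bach1*, which encodes a repressor of *Hmox1* (log2 fold change −0.09, adjusted p = 0.488). The count ratio of *Hmox1* to *Hmox2* was 26.5, 27.8 and 27.0 in *Aif1*-/- libraries and 10.1, 10.1 and 13.2 in WT libraries, without overlap (two-sided exact permutation p = 0.1, the smallest that this design allows).

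The 2 subunits of glutamate-cysteine ligase, the first and limiting enzyme of glutathione synthesis, were both higher, *Gclm* with the larger fold change. *Gclm* (ENSMUSG00000028124, chromosome 3, 122245557 to 122270732), the modifier subunit, had 8846, 9434 and 8860.2 normalized counts in *Aif1*-/- replicates 1, 2 and 3, against 4205, 3998 and 4543 in the WT replicates. Each *Aif1*-/- library lay far above the highest WT library (log2 fold change 1.09, standard error 0.07, adjusted p = 2.30e-06). *Gclc* (ENSMUSG00000032350, chromosome 9, 77754535 to 77794485), the catalytic subunit, had 3029, 3079 and 3029.8 in *Aif1*-/- libraries, against 1897, 1965 and 2192 in WT libraries. The groups again did not overlap, and the log2 fold change was 0.59 (standard error 0.07, adjusted p = 0.000225). The ratio of *Gclm* to *Gclc* counts was 2.92, 3.06 and 2.92 in *Aif1*-/- libraries and 2.22, 2.03 and 2.07 in WT libraries. The ratio was thus higher in every *Aif1*-/- library than in any WT library (two-sided exact permutation p = 0.1, the smallest possible). A stretch of 296 exon bases of *Gclm* is shared with *Gm17494* on the opposite strand, which had 1780 raw counts over the 6 libraries, and one of 244 bases with the pseudogene *Gm6061* on the same strand, which had none.

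*Slc7a11* (ENSMUSG00000027737, chromosome 3, 49892526 to 50443614) encodes xCT, the light chain of the transporter that exchanges glutamate for cystine and so supplies cysteine for glutathione. It had 855, 892 and 1031 normalized counts in *Aif1*-/- replicates 1, 2 and 3, against 727, 629 and 687 in the WT replicates. The groups did not overlap, with *Aif1*-/- replicate 3 the highest, and the log2 fold change was 0.44 (standard error 0.10, adjusted p = 0.00996). Without *Aif1*-/- replicate 3 it was 0.36 (adjusted p = 0.0672) and no longer passed the test. *Slc3a2*, the gene of the heavy chain that xCT needs, did not pass the test (log2 fold change −0.03, adjusted p = 0.834). The ratio of *Slc7a11* to *Slc3a2* counts averaged 0.153 ± 0.012 in *Aif1*-/- and 0.111 ± 0.011 in WT BMMs (SD, n = 3 each, two-sided exact permutation p = 0.1). The 4 pairs of genes whose ratios are given here were chosen after their values were seen, and over the 4 the smallest adjusted p is 0.133.

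Of the genes of the thioredoxin branch, *Txnrd1* was higher and *Srxn1* lower. *Txnrd1* (ENSMUSG00000020250, chromosome 10, 82833951 to 82897712), the cytosolic selenoenzyme that reduces thioredoxin with NADPH, had 10214, 10148 and 10050.5 normalized counts in *Aif1*-/- replicates 1, 2 and 3, against 8220, 8263 and 9249 in the WT replicates. All *Aif1*-/- libraries lay above all WT libraries, but the difference was small (log2 fold change 0.24, standard error 0.07, adjusted p = 0.0318). It did not pass without *Aif1*-/- replicate 1, 2 or 3 (adjusted p = 0.146, 0.133 and 0.120) or without WT replicate 1 (adjusted p = 0.121). *Srxn1* (ENSMUSG00000032802, chromosome 2, 152105516 to 152111376), the sulfiredoxin that repairs overoxidized peroxiredoxins, had 1960, 2039 and 2029 in *Aif1*-/- libraries, against 2727, 2416 and 3075 in WT libraries. These groups did not overlap either, in the other direction (log2 fold change −0.45, standard error 0.09, adjusted p = 0.00534).

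*Nqo1* (ENSMUSG00000003849, chromosome 8, 107388225 to 107403206) encodes the quinone reductase that is often used as a marker of NRF2 activity, and it was lower in *Aif1*-/- BMMs. It had 230, 258 and 233 normalized counts in *Aif1*-/- replicates 1, 2 and 3, against 485, 411 and 534 in the WT replicates. The highest *Aif1*-/- library was well below the lowest WT library (log2 fold change −0.99, standard error 0.13, adjusted p = 0.000326), and the level was 1.99-fold higher in WT. *Nqo1* thus had a change of about the same size as *Hmox1* and *Gclm* and of the opposite sign. Direction and call of *Hmox1*, *Gclm*, *Gclc*, *Nqo1* and *Srxn1* were the same under all 12 alternative settings, with log2 fold changes of 1.08 to 1.29, 1.05 to 1.15, 0.55 to 0.66, −1.08 to −0.89 and −0.53 to −0.35.

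**Figure D3:**
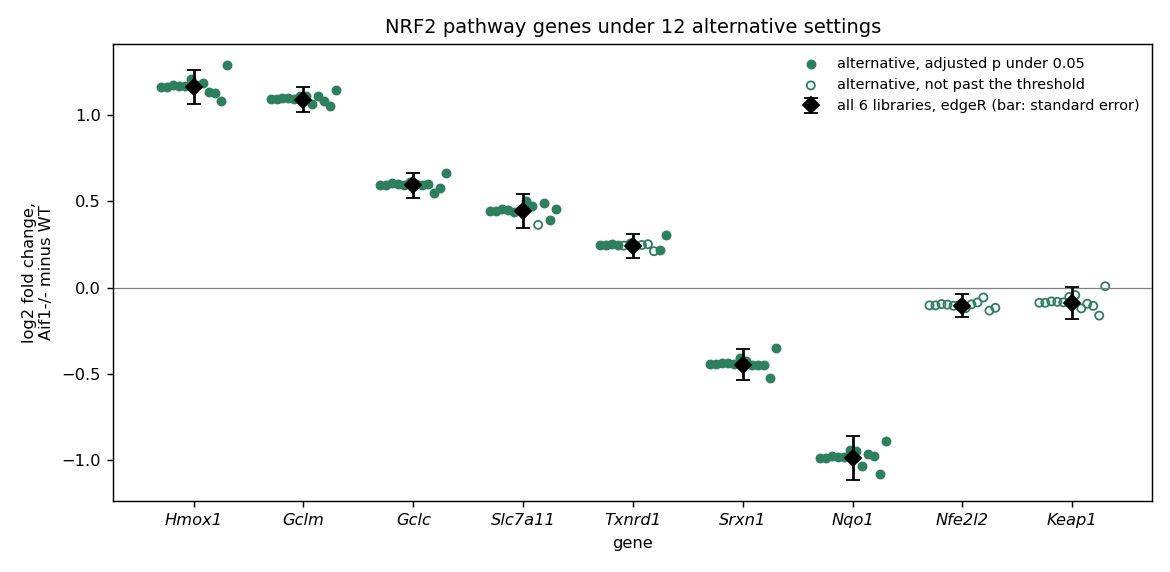
Log2 fold change (*Aif1*-/- minus WT, vertical axis) of the 9 pathway genes (horizontal axis) from all 6 libraries (diamonds, with the standard error) and under 12 alternative settings (circles, filled at an adjusted p under 0.05). *Hmox1* and *Gclm* stay between 1.05 and 1.29 and *Nqo1* between −1.08 and −0.89, while *Txnrd1* has 5 open circles and *Keap1* lies on both sides of 0.

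Per length, the genes spanned a wide range of levels. In RPKM, which are counts scaled by exon length and library size, *Hmox1* averaged 856 ± 30.1 in *Aif1*-/- and 383 ± 56.6 in WT BMMs (SD, n = 3 each), above 99.9% and 99.7% of detected genes. In *Aif1*-/- BMMs *Gclm* (61.2 ± 2.27 RPKM), *Txnrd1* (60.9 ± 0.49) and *Nfe2l2* (55.3 ± 1.35) followed, and the ranges of *Gclm* and *Txnrd1* overlapped. *Gclc* (34.4 ± 0.33), *Srxn1* (30.3 ± 0.65), *Keap1* (14.7 ± 0.80), *Nqo1* (6.59 ± 0.43), *Slc7a11* (2.83 ± 0.28) and *Pir* (1.95 ± 0.29) came after them. In WT BMMs the order was *Hmox1*, *Nfe2l2* (59.6 ± 3.55 RPKM), *Txnrd1* (51.5 ± 3.50), *Srxn1* (41.4 ± 4.98), *Gclm* (28.7 ± 1.86), *Gclc* (22.8 ± 1.74), *Keap1* (15.7 ± 1.83), *Nqo1* (13.1 ± 1.71), *Slc7a11* (2.08 ± 0.15) and *Pir* at 0. The ranges of *Keap1* and *Nqo1* overlapped in WT BMMs and lay apart in *Aif1*-/- BMMs, and no other neighbours in the 2 orders overlapped. *Srxn1* ranked above *Gclm* and *Gclc* in WT and below both in *Aif1*-/- BMMs. Even where it was expressed, *Pir* was the lowest of the 10, at a level above 53.8% of detected genes.

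The NRF2 pathway reaches far beyond these genes, and 6 further lists, set up by function as its targets, were counted. Whether NRF2 controls each listed gene was not tested, and some, such as *Trib3*, are also on the list of ATF4 targets given below. The 6 lists hold 146 genes, of which 120 were tested, and 18 of these were higher and 30 lower in *Aif1*-/- BMMs. This is 40.0%, against 18.6% of all tested genes (8.04% higher and 10.5% lower). Among those with an average log2 CPM of 3 or more, 22.2% were called. Their median log2 fold change was −0.10. Without *Aif1*-/- replicate 1, 2 or 3 in turn, 31 of the listed genes were called each time. Calls over all genes fell too, from 3231 to 2040, 2113 and 2140. Each of the 6 lists held genes called in both directions.

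Of 24 further genes for the synthesis and use of glutathione tested, 2 were higher, 7 were lower and 15 did not pass. The share called was 37.5%, against 18.6% of all tested genes. *Gstm1*, a glutathione transferase with near-identical relatives that can share its reads, averaged 584 ± 19.1 normalized counts in *Aif1*-/- and 1504 ± 244 in WT BMMs (log2 fold change −1.37). *Gstt1* (−2.41) and *Gsto1* (−0.57), transferases of other classes, were lower too. *Ggt5*, a gamma-glutamyl transferase that cleaves glutathione conjugates, had 71 raw counts over the *Aif1*-/- libraries and 1 over the WT libraries, a ratio of 90.2 (95% counting interval 15.7 to 3613). The thioredoxin and peroxiredoxin list had 4 genes called as higher and 1 as lower among 18 tested, or 27.8%, against 22.2% of all tested genes with an average log2 CPM of 3 or more. *Msrb1*, a methionine sulfoxide reductase (log2 fold change 0.63), *Prdx6* (0.56) and *Sesn1* (0.39, but adjusted p = 0.0782 and 0.0615 without *Aif1*-/- replicates 1 and 2) were higher, and *Txnip*, the inhibitor of thioredoxin, was lower (−0.35).

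Enzymes that supply NADPH, which both the glutathione and the thioredoxin systems spend, were split. Of 12 tested, 3 were higher and 1 was lower, or 33.3% called. This compares with 18.6% of all tested genes. Among those with an average log2 CPM of 3 or more, as all 12 had, it was 22.2%. *Pgd*, the second dehydrogenase of the pentose phosphate pathway, was higher (9056 ± 59.3 normalized counts in *Aif1*-/- and 6703 ± 224 in WT BMMs, log2 fold change 0.43), as were *Taldo1* (0.38) and *Me1*, malic enzyme (0.33). *G6pdx*, the first dehydrogenase of the same pathway, was lower (−0.37). Adjusted p-values of *Taldo1* and *Me1* were above 0.05 when any 1 *Aif1*-/- library was left out (0.0883 to 0.113 and 0.0572 to 0.0980), and that of *Taldo1* also without WT replicate 1 (0.104). That of *G6pdx* was above 0.05 without *Aif1*-/- replicate 2 or 3 (0.0552 and 0.0663).

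Among quinone and xenobiotic enzymes and exporters, the class of *Nqo1*, 3 of 25 tested were higher and 8 were lower. The share called was 44.0%, against 18.6% of all tested genes. *Ephx1*, microsomal epoxide hydrolase, averaged 328 ± 11.8 normalized counts in *Aif1*-/- and 996 ± 68.0 in WT BMMs (log2 fold change −1.60, standard error 0.09, adjusted p = 1.05e-06). *Xdh*, xanthine dehydrogenase (−0.94), and *Abcb1b*, a drug exporter (−0.45), were lower, and *Abcc4*, an exporter of cyclic nucleotides and conjugates, was higher (0.44). Of 17 tested genes of heme and iron handling, the class of *Hmox1*, 2 were higher and 5 lower (41.2% called). *Fth1*, the ferritin heavy chain that stores the iron set free from heme, averaged 144568 ± 6743 normalized counts in *Aif1*-/- and 64474 ± 9638 in WT BMMs, a log2 fold change of 1.16 beside that of 1.16 for *Hmox1*. *Fth1* has processed copies that can share its reads. *Cd163*, the receptor for hemoglobin, *Slc11a2*, an iron importer, and *Tfrc*, the transferrin receptor, were lower (−3.95, −0.50 and −0.47).

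Of 24 other stress-induced targets tested, 4 were higher and 8 lower. *Mt2*, a metallothionein, averaged 30.0 ± 6.84 normalized counts in *Aif1*-/- and 308 ± 67.1 in WT BMMs (log2 fold change −3.36), *Gdf15*, a stress cytokine, averaged 15.6 ± 3.91 in *Aif1*-/- and 253 ± 56.3 in WT (−4.02), and *Pparg*, a nuclear receptor, had a log2 fold change of −1.44. *Epas1*, which encodes HIF-2 alpha, was higher (1.66). *Slc7a11* is also a target of the amino acid response factor ATF4, and a list of further ATF4 targets leaned lower. In *Aif1*-/- BMMs, edgeR called 0 of 19 tested as higher and 10 as lower, with a median log2 fold change of −0.42. Of all tested genes, 8.04% were called as higher and 10.5% as lower. At an unadjusted p under 0.05, edgeR had 2 higher and 12 lower, and DESeq2 called 1 higher and 10 lower at an adjusted p under 0.05. The lower ones included *Ddit3*, the stress factor CHOP (−1.19), the serine synthesis genes *Phgdh* (−1.40) and *Psat1* (−0.61), and *Trib3* (−0.88), a pseudokinase. *Atf4* itself did not pass (−0.13, adjusted p = 0.201).

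Genes for proteins that work with NRF2 or control it were called in both directions. Of 19 tested partners and regulators, 2 were higher, 4 were lower and 13 did not pass (31.6% called, against 18.6% of all tested genes). *Mafg*, a small MAF partner of NRF2, was higher (4404 ± 183 normalized counts in *Aif1*-/- and 3329 ± 288 in WT BMMs, log2 fold change 0.40), as was *Bach2*, a relative of *Bach1* with low counts (1.92). *Trim21*, a ubiquitin ligase (−0.44), and *Nfe2l1*, the gene of the NRF2 relative NRF1 (−0.38), were lower. *Cul3* did not pass (0.12, adjusted p = 0.389).

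Of 9 tested genes of ferroptosis and cystine handling, the class of *Slc7a11*, 1 was higher and 2 were lower. The share called was 33.3%, against 18.6% of all tested genes. *Aifm2*, a reductase that guards against lipid peroxidation, was higher (0.35, but adjusted p = 0.108 and 0.112 without *Aif1*-/- replicates 2 and 3), and *Cth*, which makes cysteine (−2.85), and *Mfsd12*, a lysosomal cysteine importer (−0.58), were lower.

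Of 15 genes listed for a link to pirin, 14 were tested and *Nfib* had no count in any library. Whether pirin binds the product of each listed gene was not tested. Of the 14, 3 were higher and 4 were lower, or 50% called, against 18.6% of all tested genes. Their median log2 fold change was −0.06. *Bcl3*, the atypical IkB protein that pirin binds, averaged 183 ± 23.1 normalized counts in *Aif1*-/- and 221 ± 33.1 in WT BMMs (log2 fold change −0.28, adjusted p = 0.304), and *Nfkb1*, the gene of p105 and p50, did not pass either (log2 fold change 0.04, adjusted p = 0.756). The genes with the smallest adjusted p were *Nfix* (0.77) and *Nfia* (0.55), of the nuclear factor I family, which were higher, and *Snai2* (−0.68) and *Nfkb2* (−0.58), which were lower.

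**Figure D4:**
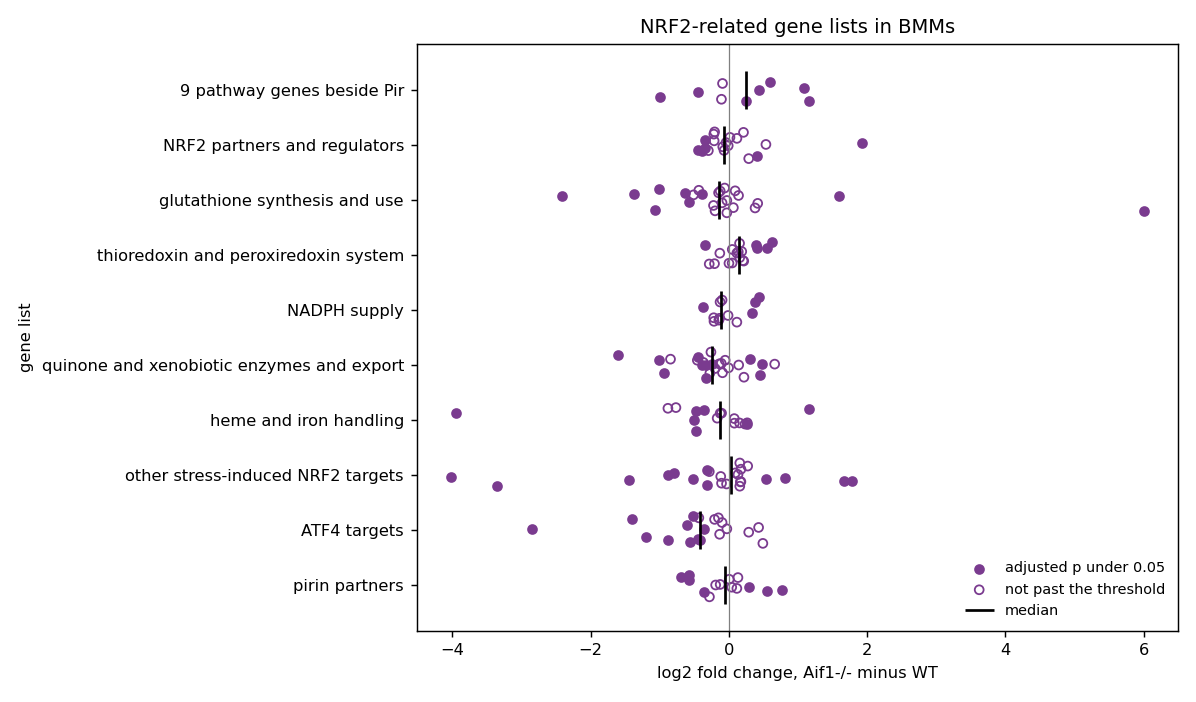
Log2 fold change (*Aif1*-/- minus WT, horizontal axis) of every tested gene of the 9 pathway genes and 9 related lists (vertical axis), filled at an adjusted p under 0.05 from edgeR, with a bar at each median. Points lie on both sides of 0 in every list, and the ATF4 targets have the lowest median, −0.42, with no filled point to the right of 0.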

How the data were processed

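RNA-seq was single-end, from total RNA depleted of ribosomal RNA. Trimming used Trim Galore 0.5, alignment to GRCm38 used TopHat2 2.0.13 with 1 location allowed for a read, and counting used HTSeq 0.6.1p1 with Ensembl release 84. The deposited values are raw counts, made by the authors. Rows that name no gene (reads outside genes, 25.5% to 40.4%, and ambiguous reads, 4.55% to 7.15%) stayed out of library sizes and tests. Symbols and coordinates are from GENCODE M21 and matched 47310 of 47729 genes.

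Counts were tested with edgeR 4.0.16 (R 4.3.3), quasi-likelihood test on genotype, TMM and filterByExpr, which kept 17406 genes. P-values were adjusted by Benjamini-Hochberg across these genes, with a threshold of 0.05. The authors used DESeq2. Standard errors are the log2 fold change over the root of F. Log2 CPM used a prior count of 2. The fit was tested on simulated data. Of genes given log2 changes of 0.585, 1 and 2, it recovered 37.3%, 61.2% and 93.9% (n = 67, 67 and 66). Genes that were not called may thus still differ. RPKM used summed exon length.

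Groups and replicate numbers came from the titles. Genes named are the 10 listed, genes within 500 kb of *Pir* with at least 10 counts in a library, the 4 smallest adjusted p of each list and the 5 nearest *Pir*. *Aif1*, *Bmx*, *Gm25367*, the *Xlr3* and *Xlr4* genes, the genes overlapping *Gclm* and *Keap1*, *Gp9*, *Gp1bb*, *Nfib*, *Atf4*, *Bach1*, *Bcl3*, *Cul3*, *Hmox2*, *Nfkb1* and *Slc3a2* were named after their values were seen. Marker lists are given mainly as counts. The members and lists were chosen with earlier results of these data known. Alternatives were DESeq2 1.42.0, RLE size factors, no filter, a stricter filter (at least 50 counts in 3 libraries), a replicate block, the percentage of reads outside genes as covariate, and each library left out. Depth was 17707986 to 29314253 counts per library. Intervals cover counting error only, and floors cover that of the WT libraries only.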

Additional observations from a re-analysis of the deposited data

How the results depend on the processing

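Of the 9 pathway genes, 7 were called with edgeR, and 5 to 7 when a library was left out. *Txnrd1* was lost with the replicate number as a block (log2 fold change 0.24, adjusted p = 0.0634), which left 6 of the 9 called. Samples of the same number showed little shared deviation (correlations of deviations 0.06, −0.08 and −0.09). Of the 6 libraries, 2, both replicates 1, correlated best with their own number. With 3 libraries per genotype, these values cannot tell whether samples of the same number were prepared together. The block left 2872 genes called in all, against 3231 without it. With the percentage of reads outside genes as covariate, 5517 genes were called in all, and 73 of the 6 further lists in place of 48. *Slc1a4* then passed (log2 fold change −0.33, adjusted p = 0.0257). Leaving out a library gave 2040 to 4889 calls in all, 31 to 62 of those lists and 2 to 3 of the genes near *Pir*. Over all genes, *Aif1*-/- replicates 1, 2 and 3 left 2040, 2113 and 2140 calls when left out, and WT replicate 3 left 4889. With no filter, 4 genes near *Pir* passed the threshold in place of 2, because *Vegfd* and *Bmx*, given here as a description, then entered the fit. No scaling moved the median log2 fold change of all genes by over 0.1, and the cause of the other changes was not tested. *Pir*, *Vegfd* and *Bmx* are limited by the depth of the WT libraries.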
